A study of Microhyla fissipes with 12 samples.

Results

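The unigenes described here are those whose mean level was higher at each successive stage of metamorphosis in dorsal muscle of the frog Microhyla fissipes. They are 171 of the 468578 unigenes, the assembled transcripts, in a table of FPKM values, that is, mapped fragments scaled by the length of the unigene and the size of the library. They were chosen on the measured values: the mean of 3 libraries had to be at least 1.5 times that of the stage before at each of 3 steps (S40 over S36, S43 over S40, S45 over S43), the S45 mean at least 30 FPKM, and the lowest S45 library at least 2 times the highest S36 library. Unigenes that switched up 4 times or more between early and late libraries, or at S45 alone, were left out. The direction of every step is therefore set by the choice, and the counts of calls given further on describe the members and support no step.

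Messenger RNA of dorsal muscle was sequenced at stages 36, 40, 43 and 45, named S36, S40, S43 and S45, with 3 libraries per stage and 12 in all. Tadpoles ate spirulina powder, the labels give no treatment or genotype contrast, and the number of animals in a library is not given. The series calls the libraries biological replicates. Total FPKM ran from 1219979 to 1688307 per library and read counts are unknown, so relative precision cannot be set from depth.

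In frogs, thyroid hormone drives metamorphosis. As known best in Xenopus, larval muscle of the tail is lost at the climax while muscle of the trunk is remodelled, with larval fibres giving way to adult ones. Transcripts that climb over these stages can belong to the new fibres, to other cells of the tissue or to the remodelling itself. The table pairs no unigene with a gene name, so no function is assigned to any member, the labelled tissue could not be checked against muscle markers, and no sequence is shown. In whole tissue, more cells of a type and more RNA per cell cannot be told apart.

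The mean level rose at each step by the choice, but in most members the S43 step rested on 1 of the 3 S43 libraries. S43 replicate 3 lay above every S40 library while S43 replicates 1 and 2 did not in 109 of the 171, against 18.6% of all 123813 unigenes tested and 29.7% of the 5478 unigenes with an S45 mean of at least 30. By contrast, 167 of the 171 had every S45 library above every S40 library, against 23.2% of all tested and 57.6% of the 5478. High levels at S45 and low levels at S36 were set by the choice. At S43 the level of most members depended on the library. Where a share of all tested or of the 5478 stands beside a count it is there for scale, and nothing is read from it where the choice used the same stages.

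**Figure D1:**
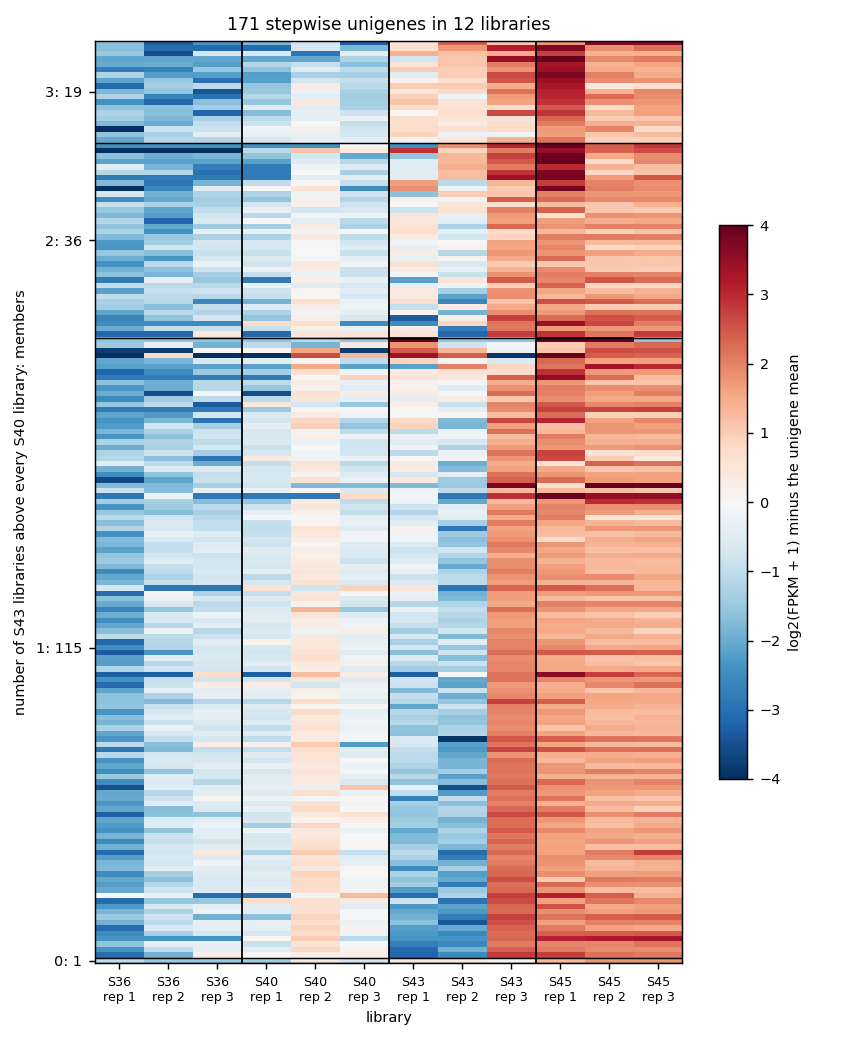
Level of each of the 171 members (one line of the map each) in the 12 libraries, as log2(FPKM + 1) minus the mean of that unigene, with red above and blue below it; lines divide members by how many S43 libraries lay above every S40 library (19, 36, 115 and 1 members for 3, 2, 1 and 0). In the block of 115, the single S43 library is replicate 3 in 109 members. In these, S43 replicate 3 is mostly red like S45, and S43 replicates 1 and 2 are mostly as blue as S36 or S40.

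Before the single members, the libraries that stood apart are set out. S45 replicates 2 and 3 were near copies of each other: the robust SD of their log2 ratio over unigenes at 1000 FPKM or more was 0.029. The next closest of the 66 pairs, S40 replicate 1 and S36 replicate 3, came from different stages, at 0.055. Over unigenes at 10 to 30 FPKM the SDs were 0.266 and 0.302 in the same order, so there these pairs were less far apart. Among members, the median ratio of S40 replicate 1 over S36 replicate 3 was 1.06 (quartiles 0.952 and 1.23, 150 members above 0 in S36 replicate 3), and 26 of the 150 reached 1.5. Unigenes at 1 FPKM or more outside the largest assembly cluster numbered 56543 in S43 replicate 3 and 49802 in S45 replicate 1, against 8388 to 24966 in the other 10 libraries. The part of these differences in the members' steps was not tested; the membership, the median steps and the limma calls are given without these libraries too.

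The members spanned a wide range of abundance. Their S45 mean ran from 30.2 to 2310 FPKM with a median of 63.2. It was 1000 FPKM or more in 4 members, 100 to 1000 in 52 and under 100 in 115. All 171 passed the filter for testing (1 FPKM or more in 3 or more libraries). At least 1 library was listed at 0 for 35 members, and 11 were listed at 0 in all 3 S36 libraries, so no ratio over S36 is given for them. Over the other 160, the S45 mean was 3.99 to 319 times the S36 mean, with a median of 8.63.

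Together the members took a small share of the transcript pool, and the choice sets the rise of its stage means. Their summed FPKM made up 0.126%, 0.247% and 0.3% of the total in the S36 libraries, and 0.313%, 0.73% and 0.44% at S40. At S43 the shares were 0.489%, 0.341% and 1.62%, and at S45 1.91%, 1.69% and 1.67%. Every S45 library lay above every earlier one, S43 replicate 3 was close under them, and S43 replicates 1 and 2 fell within the range of S40. The mean share was 0.495% ± 0.214 at S40 and 0.816% ± 0.699 at S43 (SD, n = 3 each), so the S43 step was smaller than the spread between S43 libraries, and without S43 replicate 3 the S43 mean was 0.415%.

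**Figure D2:**
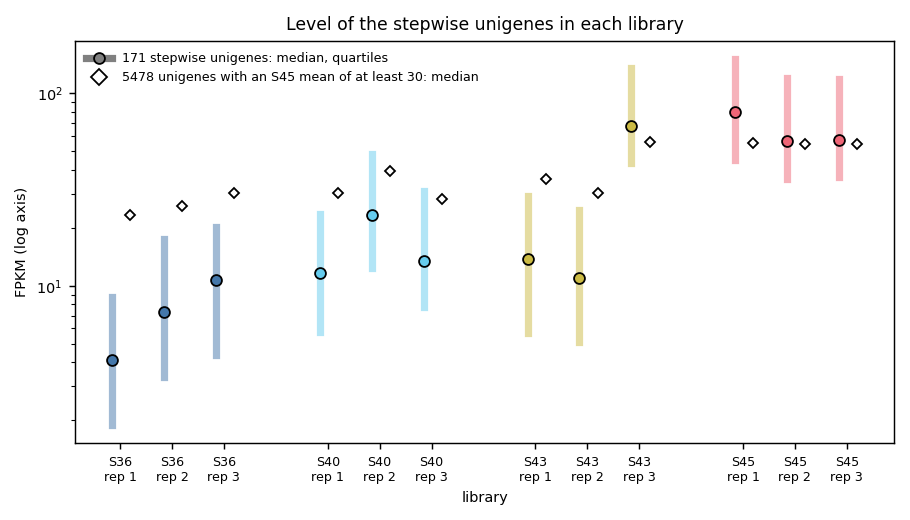
Median FPKM of the 171 members in each library (circles, with bars from the lower to the upper quartile, log axis) and the median of the 5478 unigenes with an S45 mean of at least 30 (diamonds). The member median is 67.4 in S43 replicate 3. In S43 replicate 1 it is 13.8, inside the S40 range of 11.7 to 23.3, and in S43 replicate 2 it is 10.9, below that range.

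The most abundant member, Cluster-199519.121715, had 124, 272 and 354 FPKM in the S36 libraries, 355, 1021 and 556 FPKM in the S40 libraries, 565, 907 and 1545 FPKM in the S43 libraries and 2637, 2153 and 2139 FPKM in the S45 libraries. All 3 S45 libraries were above all others, while S43 overlapped S40 through S40 replicate 2, and every S40 library was above every S36 library, S40 replicate 1 (355 FPKM) barely above S36 replicate 3 (354 FPKM). Its S43 mean was 1.56 times the S40 mean, and 1.14 times without S43 replicate 3.

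The next 4 members by S45 mean shared one profile, with S43 replicate 3 at or near the S45 level. Cluster-199519.113203 had 43.9, 102 and 163 FPKM in the S36 libraries, 158, 448 and 222 FPKM in the S40 libraries, 52.2, 42.3 and 1209.9 FPKM in the S43 libraries and 1351, 1396 and 1409 FPKM in the S45 libraries. Its S43 replicates 1 and 2 were below every S40 library, and without replicate 3 the S43 mean was 0.17 times that of S40. Cluster-199519.135549 had 93.98, 67.6 and 105 FPKM in the S36 libraries, 114, 358 and 119 FPKM in the S40 libraries, 429, 119 and 1402 FPKM in the S43 libraries and 1013, 1177 and 1139.95 FPKM in the S45 libraries. Here S43 replicate 3 exceeded every S45 library and S43 replicate 2 matched S40 replicate 3. Cluster-199519.118289 had 81.5, 168 and 175 FPKM in the S36 libraries, 169, 385 and 274 FPKM in the S40 libraries, 405, 47.6 and 1411 FPKM in the S43 libraries and 1067, 1115 and 1105 FPKM in the S45 libraries. Cluster-199519.123884 had 24.7, 55.2 and 98.4 FPKM in the S36 libraries, 96.8, 301 and 139 FPKM in the S40 libraries, 98.1, 37.7 and 1262 FPKM in the S43 libraries and 1131, 877 and 883 FPKM in the S45 libraries. In both, S43 replicate 3 was the highest of all 12 libraries and S43 replicate 2 lay below all S40 libraries.

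Cluster-199519.131190, next by S45 mean, differed from these. It had 17.5, 27.2 and 58.4 FPKM in the S36 libraries, 63.97, 259.8 and 151 FPKM in the S40 libraries, 215, 248 and 266 FPKM in the S43 libraries and 1252, 542 and 540.04 FPKM in the S45 libraries. Its 3 S43 libraries were close together, at a mean 1.54 times that of S40, and 1.46 times without replicate 3. S40 replicate 2 stood within that S43 range, and S45 replicate 1 was more than 2 times the other S45 libraries. The S40 step was the larger one in this member, with a ratio of means of 4.61.

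Among the remaining 6 of the 12 most abundant members, all had their highest S43 value in replicate 3 and their highest S40 value in replicate 2. Cluster-199519.117697 had 41.02, 86.5 and 79.4 FPKM in the S36 libraries, 75.5, 169 and 143 FPKM in the S40 libraries, 192, 48.6 and 657 FPKM in the S43 libraries and 599, 819 and 821 FPKM in the S45 libraries. Cluster-199519.117575 had 45.6, 154 and 149 FPKM in the S36 libraries, 142, 351 and 228 FPKM in the S40 libraries, 115, 65.3 and 1117 FPKM in the S43 libraries and 581, 729.5 and 759 FPKM in the S45 libraries. S43 replicate 3 of Cluster-199519.117697 stood between S45 replicate 1 and the other S45 libraries, and that of Cluster-199519.117575 was above all S45 libraries. Cluster-199519.124485 had 48.9, 93.97 and 153 FPKM in the S36 libraries, 153, 237 and 149 FPKM in the S40 libraries, 216, 240.2 and 748 FPKM in the S43 libraries and 836, 605 and 616 FPKM in the S45 libraries. Cluster-199519.116737 had 91.4, 131 and 104 FPKM in the S36 libraries, 104, 301 and 148 FPKM in the S40 libraries, 231, 27.2 and 631 FPKM in the S43 libraries and 507, 689.9 and 708 FPKM in the S45 libraries. The S43 libraries of Cluster-199519.124485 all lay at or above the S40 mean of 179.9, whereas S43 replicate 2 of Cluster-199519.116737 was the lowest of its 12 values. Cluster-199519.115722 had 27.1, 51.96 and 91.8 FPKM in the S36 libraries, 93.9, 224 and 147 FPKM in the S40 libraries, 51.8, 58.7 and 705 FPKM in the S43 libraries and 528, 635 and 613 FPKM in the S45 libraries. Cluster-199519.107635 had 29.7, 56.7 and 75.3 FPKM in the S36 libraries, 84.9, 211 and 88.3 FPKM in the S40 libraries, 86.9, 114 and 493 FPKM in the S43 libraries and 616, 552 and 563 FPKM in the S45 libraries. Without S43 replicate 3, the S43 mean of these 6 was 0.36 to 1.27 times the S40 mean, and above it in Cluster-199519.124485.

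**Figure D3:**
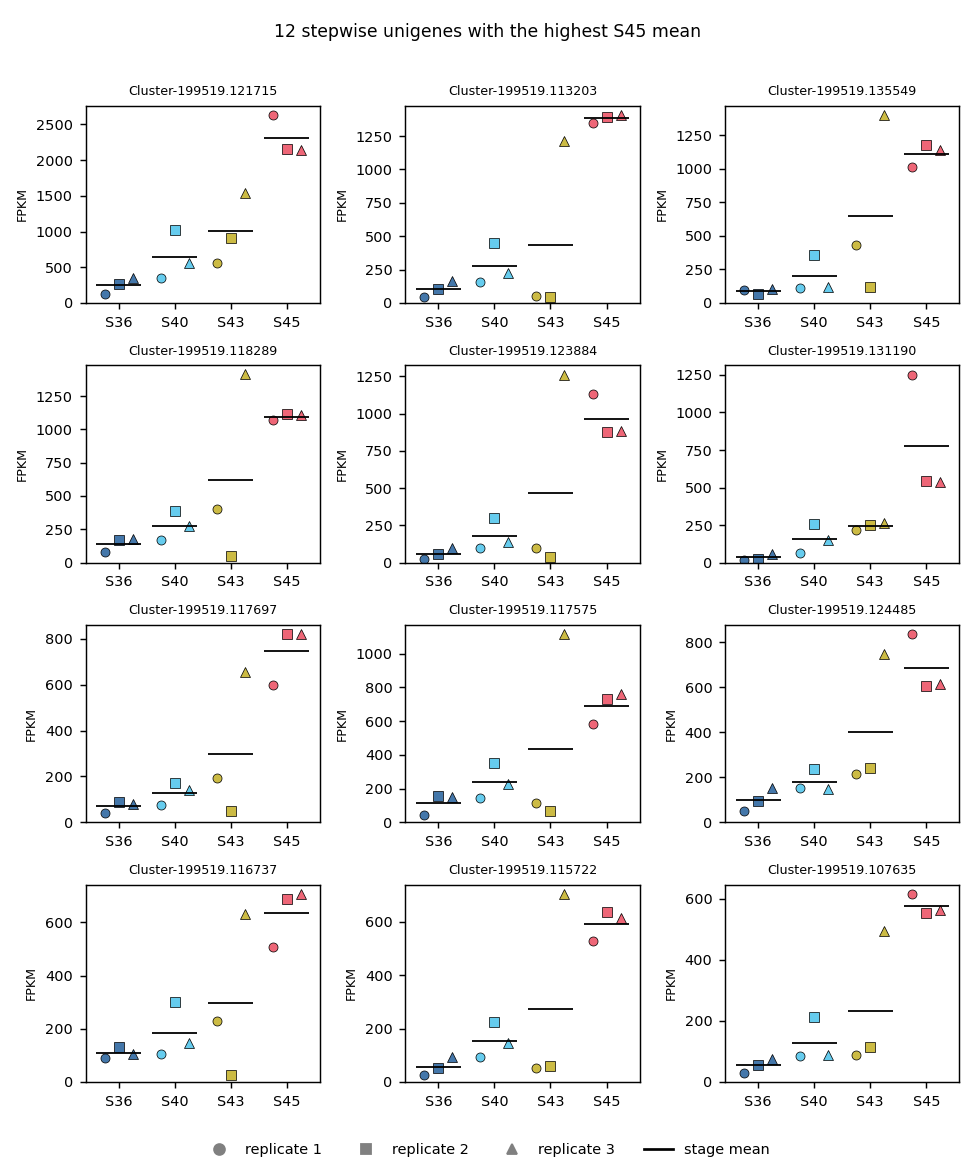
FPKM of the 12 members with the highest S45 mean in each library (circle, square and triangle for replicates 1, 2 and 3; black line, mean of 3 libraries; linear axis from 0). S43 replicate 3 stands far above the other S43 libraries in 10 of the 12 panels; in Cluster-199519.131190 the 3 S43 values run from 215 to 266, and in Cluster-199519.121715 from 565 to 1545.

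The placing of S43 replicate 3 was common to nearly all members. It was the highest S43 library in 157 of the 171, against 45.6% of all tested unigenes and 59.7% of the 5478. It was above every S45 library in 76 members, against 24.8% of all tested and 41.7% of the 5478. Its median share of a member's summed S43 FPKM was 76.4%. The mean of S43 replicates 1 and 2 was below the S40 mean in 104 members, or 60.8%. The shares were not far off in all tested, at 53.6%, and in the 5478, at 53.8%. That mean was at least 1.5 times the S40 mean in 40 members, or 23.4%, against 31.2% and 26.7%. The median ratio of that mean over S40 was 0.774, against 1.91 with all 3 S43 libraries.

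**Figure D4:**
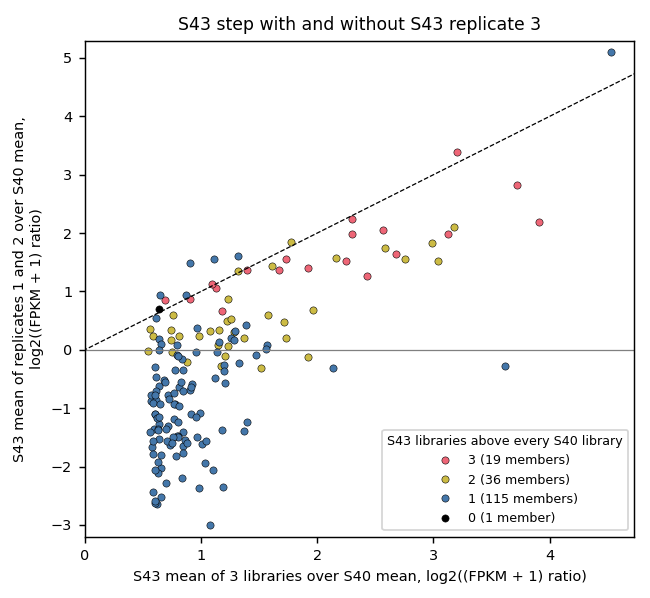
S43 step of each member from the mean of 3 S43 libraries (horizontal axis) and from S43 replicates 1 and 2 alone (vertical axis), both as the log2 ratio of FPKM + 1 over the S40 mean; the dashed line marks equality and the grey line no difference. All 171 lie right of 0 by the choice. In 104, or 60.8%, the mean of S43 replicates 1 and 2 is below the S40 mean, against 53.6% of all tested unigenes.

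Members were divided by the number of S43 libraries that lay above every S40 library, a description made after seeing the values. In 109, S43 replicate 3 alone of S43 lay above every S40 library. They include Cluster-199519.131190, whose S43 libraries were close together. The median FPKM of the 109 was 4.17, 10 and 13.1 in the S36 libraries, 12.8, 27.4 and 16.0 at S40, 11.3, 7.17 and 80.95 at S43 and 75.01, 60.9 and 60.4 at S45. S43 replicates 1 and 2 were both below the S40 mean in 83 of the 109 and below every S40 library in 57. The division itself picked members whose S43 replicates 1 and 2 were not above every S40 library. No share of other unigenes is given for these 2 counts, so nothing is read from them. Taken without S43 replicate 3, the medians of the 109 were low through S43 and high at S45. The choice and the division largely set this course.

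In the 36 members with 2 S43 libraries above every S40 library, the medians were 9.28, 16.1 and 9.64 FPKM at S40, 17.5, 17.8 and 60.3 at S43 and 83.1, 39.9 and 50.1 at S45. The 19 members with all 3 S43 libraries above S40 had medians of 3.64, 2.65 and 4.17 FPKM at S36, 6.19, 10.6 and 7.71 at S40, 25.7, 27.3 and 44.4 at S43 and 95.2, 36.2 and 36.7 at S45. These 19 are 11.1% of the members, against 6.73% of all tested unigenes and 16.3% of the 5478. S45 replicate 1 was the highest S45 library in 17 of the 19, against 40.1% of all tested and 46.1% of the 5478. In none was S43 replicate 3 above every S45 library, against 24.8% and 41.7%. Of the 19, 8 also had every S40 library above every S36 library, against 6.21% and 13%. Every S45 library was above every S43 library in 7, against 16.9% and 23.1%.

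The 1 member with no S43 library above every S40 library was Cluster-199519.119162. It had 25.9, 18.8 and 18.9 FPKM in the S36 libraries, 19.97, 73.5 and 31.7 FPKM in the S40 libraries, 69.1, 67.7 and 59.6 FPKM in the S43 libraries and 132, 182 and 185 FPKM in the S45 libraries. S40 replicate 2 was the highest value before S45, and the 3 S43 libraries were close together. The 6 members whose single S43 library above S40 was not replicate 3 included Cluster-199519.150542, which had 0, 60.1 and 0 FPKM in the S36 libraries, 0, 212 and 84.3 FPKM in the S40 libraries, 367, 188 and 1.35 FPKM in the S43 libraries and 568, 185 and 174 FPKM in the S45 libraries. There S43 replicate 3 was near 0 beside other S43 libraries at the S45 level, the reverse of the common profile. These members were picked out after their values were seen.

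Fully separated stages were rare. In 5 members no library overlapped at any of the 3 steps, against 0.0121% of all tested unigenes and 0.128% of the 5478. Cluster-199519.126457 had 14.9, 8.68 and 25.5 FPKM in the S36 libraries, 28.2, 113 and 32.6 FPKM in the S40 libraries, 182, 122 and 256 FPKM in the S43 libraries and 634, 300.4 and 279 FPKM in the S45 libraries. Its means climbed by ratios of 3.54, 3.22 and 2.17, and the S43 ratio was 2.62 without S43 replicate 3. Cluster-199519.151658 had 7.11, 5.82 and 13.04 FPKM in the S36 libraries, 14.2, 25.6 and 13.2 FPKM in the S40 libraries, 43.4, 32.9 and 43.6 FPKM in the S43 libraries and 116, 74.3 and 71.5 FPKM in the S45 libraries. Cluster-199519.94431 had 6.48, 6.33 and 7.89 FPKM in the S36 libraries, 14.7, 15.5 and 8.20 FPKM in the S40 libraries, 36.8, 32.3 and 36.8 FPKM in the S43 libraries and 123, 38.4 and 68.2 FPKM in the S45 libraries. The S43 values of Cluster-199519.151658 and Cluster-199519.94431 were close together, and the S43 ratio without replicate 3 was 2.16 and 2.70, beside 2.26 and 2.76 with it. The margin between S40 and S36 was thin, at 13.16 over 13.04 FPKM in Cluster-199519.151658 and 8.20 over 7.89 FPKM in Cluster-199519.94431.

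The other 2 of the 5 were low in abundance. Cluster-199519.100264 had 0, 7.88 and 8 FPKM in the S36 libraries, 12.9, 17.5 and 8.64 FPKM in the S40 libraries, 25.9, 23.5 and 26.3 FPKM in the S43 libraries and 51.3, 61.4 and 26.6 FPKM in the S45 libraries. Its lowest S45 value was barely above the highest S43 value, and its S36 replicate 1 was listed at 0. Cluster-199519.118076 had 3.93, 2.65 and 4.17 FPKM in the S36 libraries, 5.15, 8.79 and 9.70 FPKM in the S40 libraries, 19.7, 16.9 and 17.4 FPKM in the S43 libraries and 63.4, 24.9 and 25.97 FPKM in the S45 libraries. S45 replicate 1 was more than 2 times the other S45 libraries here, and S43 spanned less than 3 FPKM.

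**Figure D5:**
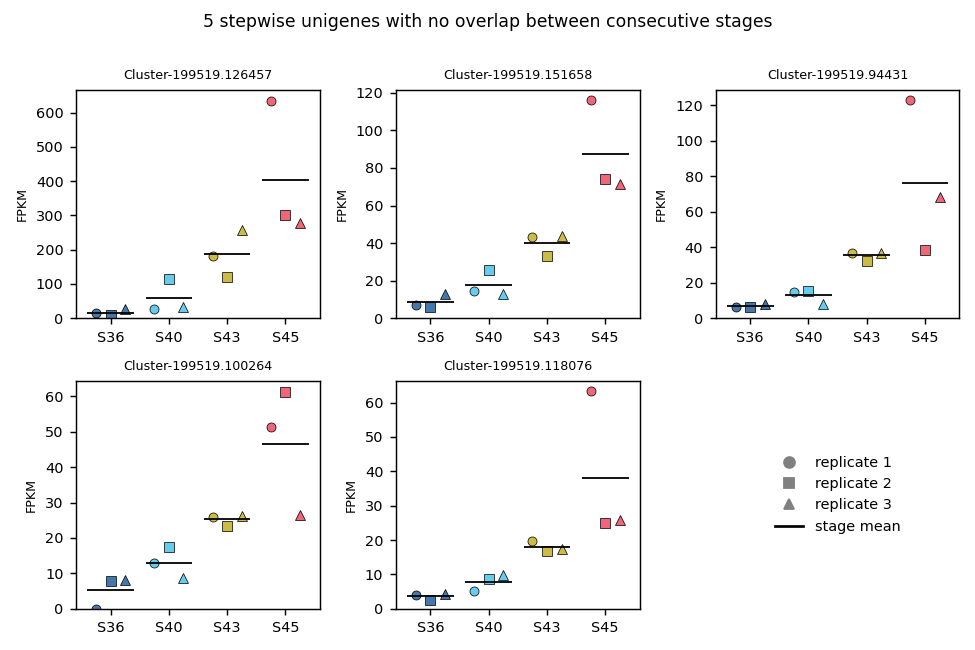
FPKM of the 5 members whose libraries do not overlap between any 2 consecutive stages (circle, square and triangle for replicates 1, 2 and 3; black line, mean of 3 libraries; linear axis from 0). The S43 values are tightly grouped in 4 of the 5 panels, and S45 replicate 1 is the highest S45 value in 4.

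Among the 160 members with S36 above 0, the steepest climbs, ranked by the smallest of the 3 ratios, were mostly in members of modest level. The other 11 have no ratio over S36; in Cluster-199519.198217 and Cluster-132705.0 the smaller of the remaining ratios was 3.07 and 2.86. Cluster-199519.126456 led the 160, with 8.30, 2.53 and 1.82 FPKM in the S36 libraries, 9.05, 16.3 and 7.52 FPKM in the S40 libraries, 42, 19.4 and 71.3 FPKM in the S43 libraries and 181, 106 and 78.99 FPKM in the S45 libraries, and a smallest ratio of 2.597. Its number comes just before that of Cluster-199519.126457, and the levels of both had a Pearson r of 0.944 over the 12 libraries. After subtracting stage means the r was 0.547. Cluster-199519.118360 had 0, 6.46 and 32.3 FPKM in the S36 libraries, 42.8, 64.03 and 7.07 FPKM in the S40 libraries, 159, 38.3 and 90.9 FPKM in the S43 libraries and 643, 190.2 and 167 FPKM in the S45 libraries, with a smallest ratio of 2.53. Both kept an S43 ratio over 2.5 without S43 replicate 3, but the S40 and S36 libraries overlapped.

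Next came Cluster-199519.144971 and Cluster-199519.176403. Cluster-199519.144971 had 2.35, 3.74 and 0 FPKM in the S36 libraries, 12.5, 4.82 and 2.44 FPKM in the S40 libraries, 10.8, 4.34 and 37.3 FPKM in the S43 libraries and 54.3, 36.4 and 39.1 FPKM in the S45 libraries. Cluster-199519.176403 had 1.22, 0 and 1.10 FPKM in the S36 libraries, 2.83, 6.44 and 2.98 FPKM in the S40 libraries, 23.02, 2.57 and 18.1 FPKM in the S43 libraries and 51.4, 28.9 and 26.3 FPKM in the S45 libraries. S43 replicate 3 carried the S43 step of the first, whose ratio without it was 1.15, while the second kept a ratio of 3.13 through S43 replicate 1. Values near 0 gave the last 2 their large ratios: Cluster-199519.23730 had 0, 0 and 0.35 FPKM in the S36 libraries, 1.03, 0 and 0 FPKM in the S40 libraries, 0, 0.21 and 46.2 FPKM in the S43 libraries and 4.54, 56.6 and 50.3 FPKM in the S45 libraries, and Cluster-199519.1282 had 0, 0 and 10.6 FPKM in the S36 libraries, 0, 11.7 and 11.7 FPKM in the S40 libraries, 12.2, 0 and 60.3 FPKM in the S43 libraries and 64.8, 38.4 and 61.4 FPKM in the S45 libraries. A listed 0 in 4 or more libraries makes their ratios unreliable, and S43 replicates 1 and 2 of Cluster-199519.23730 were at or near 0.

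At the S40 step, S40 replicate 2 was most often the highest of its stage, among the members as among all tested unigenes. It was the highest S40 library in 144 members, against 43.9% of all tested unigenes and 66% of the 5478. All 3 S40 libraries were above every S36 library in 65 members, against 6.21% of all tested and 13% of the 5478, 2 of them in 72, 1 in 33 and none in 1. In 25 of the 33 the single library was S40 replicate 2. For the 72, the 33, the 1 and the 25 no share of other unigenes is given, so nothing is read from them. Without S40 replicate 2, the S40 mean was still at least 1.5 times the S36 mean in 116 members. The shares were 26.5% of all tested and 18.3% of the 5478. The S43 step without its replicate 3 was kept in 40, against 31.2% of all tested and 26.7% of the 5478. S36 replicate 1 was the lowest S36 library in 103 members, against 26.8% of all tested and 45.7% of the 5478.

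At the S45 step, every S45 library was above every S43 library in 32 members, against 16.9% of all tested unigenes and 23.1% of the 5478. S43 replicate 3 was at or above the lowest S45 library in 134 members, against 69.1% of all tested and 64.7% of the 5478. S45 replicate 1 was above both other S45 libraries in 123 members, against 40.1% of all tested, and at least 2 times both in 33, against 17.6% of all tested and 4.76% of the 5478. Both others were at least 2 times replicate 1 in 8, against 15.7% and 6.75%. Of the libraries with the most unigenes outside the largest cluster, S43 replicate 3 was the highest of all 12 in 76 members, against 16% of all tested and 26.3% of the 5478. S45 replicate 1 was the highest in 69, against 19.1% and 14.5%.

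The size of the steps differed by scale. By ratios of mean FPKM, the median was 2.07 for S40 over S36 (160 members), 1.91 for S43 over S40 and 1.84 for S45 over S43 (171 members each). The largest ratio fell on the S40 step in 83 members, counting the 11 with S36 at 0, on the S43 step in 52 and on the S45 step in 36. On means of log2(FPKM + 1), which weigh the 3 libraries of a stage more evenly, the median steps were 1.01, 0.44 and 1.62 in the same order. All tested unigenes had medians of 0.09, 0.01 and 0.33, and the 5478 had 0.26, 0.09 and 0.49. The S45 step was thus the largest on the log2 scale and the S43 step the smallest. Without S43 replicate 3 the median S43 step was -0.45 and the S45 step 2.48.

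By limma, fitted to all tested unigenes with S45 replicates 2 and 3 as 1 sample, calls among the members came in S45 against S36 and in no single step. For S45 against S36 it called 38 of the 171 higher (log2 difference of 1 or more, Benjamini-Hochberg adjusted p under 0.05), against 0.568% of all tested. The choice used this contrast and each step, so these counts are a description. For S40 against S36, S43 against S40 and S45 against S43 it called none, against 0.00162%, 0.139% and 0.884% of all tested. In the same order, 23, 23 and 44 members were higher at an unadjusted limma p under 0.05, against 2.2%, 6.66% and 14.4% of all tested. Of the S45 against S36 calls, none remained without S45 replicate 1, when S45 is a single sample. Leaving out S36 replicate 1, 2 or 3 gave 4, 2 or 14 calls, and leaving out S40 replicate 1, 2 or 3 gave 18, 22 or 18. For these refits the share of all tested unigenes called is not given, so nothing about the members is read from them. There were 142 calls without S43 replicate 3, against 5.01% of the 109756 unigenes tested without that library. Without S43 replicate 3, 77 members were called for S45 against S43, against 6.24% of the 109756.

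Values of a library left out of the choice were read as well. For each library, members were chosen anew from the other 11 and the held-out value was set against a stage mean. That mean did take part in the choice, which favours a low mean below and a high mean above a step, so a share over that of the other unigenes does not by itself show the step in the held-out library. In S40, held-out replicates 1, 2 and 3 were at least 1.5 times the S36 mean in 43.7%, 94.8% and 67.2% of the newly chosen unigenes, against 16.7%, 44.9% and 21.3% of the unigenes with an S45 mean of at least 30. The S43 mean was at least 1.5 times these held-out libraries in 95.2%, 30.5% and 94.2%, against 44.5%, 27.4% and 47.7%, so for S40 replicate 2 the share was near that of the other unigenes. S40 replicate 1 is close to S36 replicate 3, which took part in the choice. The S40 mean was at least 1.5 times held-out S36 replicates 1, 2 and 3 in 84.1%, 70.6% and 47.3% of newly chosen unigenes. Among the unigenes with an S45 mean of at least 30 the shares were 47.4%, 34.3% and 18.1%. No test was made of these or the following shares.

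At S43 the held-out libraries split. Replicate 1 was at least 1.5 times the S40 mean in 45 of 155 newly chosen unigenes, which is 29.0%, against 27.1% of those with an S45 mean of at least 30. For replicate 2 it was 27 of 152, 17.8% against 23.1%. For replicate 3 it was 59 of 63, 93.7% against 53.1%, but the S45 mean was at least 1.5 times replicate 3 in 19 of the 63, 30.2% against 28.0%. Held out, S43 replicate 3 thus reached 1.5 times the S40 mean in most of its list, and S43 replicates 1 and 2 in a minority of theirs. For replicates 1 and 2 the shares were near or below those of the other unigenes. The lists hold different unigenes and the S40 mean took part in each choice, so no step is read from these shares. Held out of S45, replicates 1, 2 and 3 were at least 1.5 times the S43 mean in 63.8%, 49.3% and 48.8%, against 40.2%, 35.8% and 35.6%. S45 replicates 2 and 3 are near copies, so the choice without one still holds the other.

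Membership moved with the libraries used. Without S43 replicate 3 the rule found 63 unigenes, of which 37 were among the 171, 21.6% of the members and 58.7% of the new list. Without S43 replicate 1 it found 155 and without replicate 2 it found 152, with 72 shared in each case, 42.1% of the members. Leaving out any other single library kept 63.2% to 95.3% of the members. In all 12 such choices 6 members were found each time, Cluster-199519.126457, Cluster-199519.118360, Cluster-199519.126456, Cluster-199519.151658, Cluster-199519.94431 and Cluster-199519.100264. Of these, 4 are among the 5 members with no overlap at any step.

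The members also varied together within stages. The choice used the same libraries, and most members passed the S43 step through S43 replicate 3. The part of the choice in the shared variation was not tested. Over the 14535 pairs of members, the median Pearson r of log2(FPKM + 1) over 12 libraries was 0.82, with quartiles of 0.709 and 0.906, which the shared choice raises. After each stage mean was subtracted, the median was 0.626, with quartiles of 0.36 and 0.845, beside a median of 0.182 over pairs of the 5478. With the S43 libraries left out the medians were 0.478 for members and 0.152 for the 5478, and with S43 replicate 3 and S45 replicate 1 left out 0.411 and 0.17. These are descriptions, because all pairs share the libraries and their composition and the choice used the other stages too. The closest pairs were Cluster-199519.123884 with Cluster-199519.94964 at an r of 0.996, Cluster-199519.103939 with Cluster-199519.100742 at 0.996 and Cluster-199519.95019 with Cluster-199519.125306 at 0.995. S43 replicate 3 stood above S43 replicates 1 and 2 in these pairs: Cluster-199519.94964 had 11.7, 5.80 and 79.8 FPKM in the S43 libraries, and Cluster-199519.103939 had 21.4, 7.17 and 262 FPKM.

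In the assembly, 170 of the 171 members belonged to the largest cluster, and 1, Cluster-132705.0, did not. That cluster holds 224984 of the 468578 unigenes, 79.8% of those tested and 99.8% of the 5478, beside 99.4% of the members. Cluster-132705.0 had 0, 0 and 0 FPKM in the S36 libraries, 0, 2.31 and 1.13 FPKM in the S40 libraries, 2.16, 10.3 and 23.2 FPKM in the S43 libraries and 79.4, 6.42 and 15.95 FPKM in the S45 libraries. It too was highest in S45 replicate 1 and, at S43, in replicate 3. No other cluster held more than 1 member.

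Within the largest cluster, 4 pairs of members had ID numbers at most 2 apart. Cluster-199519.158102 and Cluster-199519.158101 ran nearly in parallel, with an r of 0.988 and 0.960 after subtracting stage means. Cluster-199519.158102 had 3.20, 4.36 and 8.75 FPKM in the S36 libraries, 6.28, 22.7 and 14.3 FPKM in the S40 libraries, 22.6, 14.03 and 74.1 FPKM in the S43 libraries and 86.1, 76.4 and 73.7 FPKM in the S45 libraries, and Cluster-199519.158101 had 1.96, 3.09 and 5.38 FPKM in the S36 libraries, 4.59, 17.96 and 6.40 FPKM in the S40 libraries, 18.4, 13.8 and 89.4 FPKM in the S43 libraries and 80.6, 62.9 and 62.5 FPKM in the S45 libraries. Cluster-199519.93281 and Cluster-199519.93283 had an r of 0.901, Cluster-199519.126457 and Cluster-199519.126456 one of 0.944, and Cluster-199519.112925 and Cluster-199519.112926 one of 0.696. Whether such neighbours are pieces of 1 transcript was not tested, and members may therefore not be separate genes.

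At the edges of the choice, values passed smoothly from members to others. Cluster-199519.95019 was just inside on the S43 step, with a ratio of 1.503, and Cluster-199519.130787 just outside, at 1.4998. Cluster-199519.54944 and Cluster-199519.99483 stood at 1.501 and 1.498 on the S45 step, and Cluster-199519.94500 and Cluster-199519.53294 at 1.516 and 1.497 on the S40 step. On the S45 mean, Cluster-199519.26898 had 30.2 FPKM and Cluster-199519.169308 had 29.7. For the lowest S45 library over the highest S36 library, Cluster-199519.103724 was at 2.05 and Cluster-199519.138850 at 1.98. The clauses on switched unigenes removed 9, of which 7 had a listed 0 in an S43 or S45 library and in all early ones, so that the clause was met by 0 against 0. A listed 0 also let in Cluster-199519.135576, which had 0, 0 and 0 FPKM in the S36 libraries, 0, 0.35 and 0 FPKM in the S40 libraries, 74.3, 0 and 0 FPKM in the S43 libraries and 60.9, 74.2 and 0 FPKM in the S45 libraries.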

How the data were processed

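Dorsal muscle messenger RNA of Microhyla fissipes was sequenced in 12 libraries, and stage and replicate were taken from the sample titles. Per the labels, the deposited table holds FPKM made by the authors, with 2 decimals; for the assembler, aligner and counting tool, nothing was stated. Rows carry unigene IDs without gene names, so gene lists and tissue markers could not be used. The members and lists were chosen with earlier results of these data known.

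The choice was applied to the deposited FPKM without further scaling, with the plain mean of 3 libraries per stage. Since FPKM are relative, a drop of the few dominant transcripts pushes up the values of the rest. Unigenes at 1 FPKM or more in 3 or more libraries, 123813 in all, were fitted by limma 3.58.1 (R 4.3.3, and version 1.17.8 of data.table) on log2(FPKM + 1), a scale that understates the change of low unigenes. Stage was the only term, variances were moderated with a mean trend, and Benjamini-Hochberg adjustment ran over all tested unigenes in each contrast. S45 replicates 2 and 3, near copies, entered as their mean, so the fit held 11 samples. The p-values rest on the spread among these libraries, part of which may be technical. The fit was tested on simulated data. Python 3.11.15 with numpy 2.4.6, pandas 2.3.3 and matplotlib 3.10.9 did the rest.

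Members named in the text were the 12 of highest S45 mean, the 6 with the largest smallest step (S36 mean above 0), those with no overlap between consecutive stages, those nearest each threshold, neighbours by ID and the 3 closest pairs; others were picked after their values were seen, as were Cluster-132705.0, Cluster-199519.198217 and those found again without any 1 library. Alternatives were other step sizes, S45 floors, scalings, pseudocounts, filters, variance models and libraries left out. Read depth is unknown, so no counting interval is given.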

Additional observations from a re-analysis of the deposited data

How the results depend on the processing

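The number of unigenes meeting the stepwise rule, 171, was 40 with median-ratio scaling (33 of them members) and 54 with quantile normalization (47 of them members). The members' median log2 steps, 0.44 at S43 and 1.62 at S45, were 0.61 and 1.01 with median-ratio scaling. With quantile normalization they were 0.07 and 1.44. Why the number fell was not tested. The number was 502 with a lower minimum for each step, 28 with steps of at least 2, 395 with an S45 floor of 10 and 56 with one of 100. With S45 replicates 2 and 3 as 1 library it was 204, with no exclusion clauses 180, and with those clauses applied only above 0 it was 178. Leaving out 1 library gave 63 (without S43 replicate 3) to 217. Without both S43 replicate 3 and S45 replicate 1, an alternative chosen after seeing the data like the last clause setting, it was 54, and with S36 replicate 3 and S40 replicate 1 both left out it was 156.

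The median S43 step of the members, 0.44 on the log2 scale, reversed to -0.45 without S43 replicate 3, also when S45 replicate 1 was left out with it, and ran up to 0.92 without S43 replicate 2; the S40 step ran from 0.73 to 1.28 and the S45 step from 1.02 to 2.48 over the single libraries left out. With quantile normalization the S43 step was 0.07, beside -0.11 for all tested unigenes. With median-ratio scaling the S45 step was 1.01, where that of all tested unigenes moved to 0.01. The members' share of total FPKM without the 100 most abundant unigenes in the total was 0.389% at S36, 0.798% at S40, 1.13% at S43 and 2.27% at S45. Over single libraries left out it ran from 0.187% to 0.274% at S36, 0.377% to 0.585% at S40, 0.415% to 1.05% at S43 and 1.68% to 1.80% at S45.

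The 38 members called higher for S45 against S36 became 82 with 12 separate libraries, 23 with a pseudocount of 0.1, 22 with no filter, 14 with median-ratio scaling, 17 with quantile normalization and 0 when the fit held no stage but S36 and S45. They became 7 with S36 replicate 3 and S40 replicate 1 both left out, and 0 with S43 replicate 3 and S45 replicate 1 both left out. Over single libraries left out they ran from 0 to 142, and those for S45 against S43 from 0 to 77. For S45 against S43, 4 were called with 12 separate libraries. For S40 against S36, 1 was called with a pseudocount of 0.1, 1 with a pseudocount of 0.5 and 0 to 1 with a library left out. For S43 against S40 it was 0 in every alternative. Apart from the fit without S43 replicate 3, the share of all tested unigenes called is not given for these settings. The counts are therefore not read as particular to the members. The cause of these changes was not tested.

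Deviations from stage means of same-numbered libraries correlated between -0.23 and 0.12, and 1 of 12 libraries was closest to its own number. No pairing by replicate number was seen in these values, but they cannot exclude one. With the replicate number as a block and 12 separate libraries, 61 members were called for S45 against S36, beside 82 without the block. The share of all tested unigenes called is not given for either fit.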
